A study of Homo sapiens with 4 samples.

Results

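The NY-ESO-1, CT45, CT47 and SPANX genes are multi-copy cancer/testis antigens of the X chromosome, and their transcripts were compared between decitabine-treated and vehicle-treated HCT116 cells. Rows were taken by name: probe sets whose gene symbols all begin with CTAG1, CTAG2, CT45A, CT47A, CT47B or SPANX. This gave 33 of the 33297 probe sets on the array. Probe sets of near-identical copies can hold the same values, so each distinct row of values was kept a single time, which left 22 rows of the 20835 distinct rows that carry a gene symbol. Of the 22 rows, 13 name several gene copies and 9 name 1 gene. The rows belong to the CTAG family (2 rows), CT45 (6), CT47 (3), the SPANX-A/D subfamily (4) and the SPANX-N subfamily (5), and 2 rows name SPANXA2-OT1, a noncoding transcript that shares the SPANX prefix but encodes no antigen.

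HCT116 is an established human colorectal carcinoma line. The treated group (5aza, 2 arrays) received 5-aza-2'-deoxycytidine (decitabine) at 1 µM in fresh medium 24 hours after seeding and again 48 hours after the first dose, and the control group (2 arrays) is labelled as vehicle, whose composition the labels do not name. RNA of both groups was taken at 72 hours. All cells are of a single line, and nothing in the labels says whether the numbered samples came from separate cultures, so every p-value reflects sample-to-sample spread that could be purely technical.

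Cancer/testis antigens are proteins made mainly by male germ cells and silent in most other adult tissues, which reappear in many tumours. In somatic cells their promoters are usually methylated at CG dinucleotides, and decitabine, once built into DNA, traps the DNA methyltransferases so that methylation is lost as cells divide. NY-ESO-1 is encoded by the twin genes CTAG1A and CTAG1B and is a target of T cell therapy, and its close relative LAGE-1 is encoded by CTAG2. CT45 genes encode nuclear proteins, CT47 genes encode testis proteins of little known function, and SPANX genes encode small proteins of the sperm nucleus.

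The RefSeq gene table of GRCh38.p14 placed all 33 named symbols on the X chromosome. It lists 3 CTAG, 10 CT45, 13 CT47 and 11 SPANX genes, of which 3, 7, 12 and 11 are named by a row. CT45A7, CT45A9, the pseudogene CT45A11P and CT47A12 are named by none. Promoter windows of 300 bases, running from 250 bases before to 50 after a gene's start, were given for 12 of the member genes in RefSeq (GRCh38.p14). No CTAG or CT47 gene had a window, nor did SPANXN4. Of the CT45 genes only CT45A1, CT45A7 and CT45A10 had one, so the windows do not describe all members. The windows below, written 5′ to 3′ along the gene with CG dinucleotides, the sites that DNA methyltransferases methylate, in capitals, show the CG content of CT45, SPANX-A/D and SPANX-N genes and how close the SPANX sequences are.
CT45A10, start 1 (chrX:135893395-135893694, minus strand): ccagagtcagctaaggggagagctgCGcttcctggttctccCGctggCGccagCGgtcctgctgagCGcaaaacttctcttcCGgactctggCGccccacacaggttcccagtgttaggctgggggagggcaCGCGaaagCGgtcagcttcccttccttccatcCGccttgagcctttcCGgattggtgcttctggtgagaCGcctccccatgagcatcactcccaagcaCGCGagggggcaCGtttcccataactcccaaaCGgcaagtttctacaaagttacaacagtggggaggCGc
CT45A1 (chrX:135713389-135713688, plus strand): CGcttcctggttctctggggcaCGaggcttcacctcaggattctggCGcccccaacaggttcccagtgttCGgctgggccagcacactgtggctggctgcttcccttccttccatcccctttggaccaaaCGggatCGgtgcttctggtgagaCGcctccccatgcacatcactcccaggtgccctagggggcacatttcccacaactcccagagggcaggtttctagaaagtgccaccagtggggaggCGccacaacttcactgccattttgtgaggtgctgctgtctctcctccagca
SPANXC (chrX:141242468-141242767, minus strand): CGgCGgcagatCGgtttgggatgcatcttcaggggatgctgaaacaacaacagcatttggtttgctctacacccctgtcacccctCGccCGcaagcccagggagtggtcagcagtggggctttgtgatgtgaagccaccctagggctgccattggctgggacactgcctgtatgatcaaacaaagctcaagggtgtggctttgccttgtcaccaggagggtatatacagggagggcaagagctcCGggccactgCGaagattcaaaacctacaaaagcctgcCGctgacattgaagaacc
SPANXA1 (chrX:141584689-141584988, minus strand): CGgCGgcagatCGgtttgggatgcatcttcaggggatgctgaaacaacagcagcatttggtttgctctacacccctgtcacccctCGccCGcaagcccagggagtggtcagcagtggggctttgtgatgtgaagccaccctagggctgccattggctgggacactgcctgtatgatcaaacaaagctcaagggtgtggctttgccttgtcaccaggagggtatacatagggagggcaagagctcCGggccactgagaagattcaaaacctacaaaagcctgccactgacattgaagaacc
SPANXN2 (chrX:143720703-143721002, minus strand): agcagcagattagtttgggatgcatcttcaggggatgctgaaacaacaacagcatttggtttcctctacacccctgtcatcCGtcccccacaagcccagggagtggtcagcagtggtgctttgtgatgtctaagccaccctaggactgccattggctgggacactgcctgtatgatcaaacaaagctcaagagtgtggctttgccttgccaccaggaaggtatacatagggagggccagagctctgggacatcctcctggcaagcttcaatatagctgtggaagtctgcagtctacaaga
SPANXD (chrX:141698690-141698989, minus strand): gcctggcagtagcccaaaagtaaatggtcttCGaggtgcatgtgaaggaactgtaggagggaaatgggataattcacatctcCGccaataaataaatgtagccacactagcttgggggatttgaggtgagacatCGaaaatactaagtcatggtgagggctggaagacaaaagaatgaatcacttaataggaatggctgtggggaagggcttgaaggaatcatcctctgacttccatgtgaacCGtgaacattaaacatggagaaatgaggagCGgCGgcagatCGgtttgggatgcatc

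The CT45A10 window at the first of its starts held 18 CG dinucleotides, the window at its other start held 9, and those of CT45A7 and CT45A1 held 10 and 8. Over all 35116 windows the median was 14, and 44.5% held 18 or more. CT45A10 start 1 and CT45A1 were 81.7% identical over their aligned bases, whereas CT45A1 and the window at the other CT45A10 start were 95.9% identical. Apart from CT45A10 start 1, the CT45 counts overlapped those of SPANX-A/D: SPANXC held 8 CG dinucleotides, SPANXB1 9, and SPANXA1 and SPANXA2, whose windows have identical sequences, held 6. SPANX-N windows held fewer: 4 in SPANXN3, 3 in SPANXN1 and 1 each in SPANXN2 and SPANXN5. The subfamilies are nonetheless close in sequence: SPANXA1 and SPANXN2 were identical at 258 of 292 aligned bases (88.4%). Of the 5 CG dinucleotides of SPANXA1 within that alignment, 0 were CG in SPANXN2, and 2 were CG in SPANXN1 as well as in SPANXN3. The SPANXD window lies mostly upstream of the stretch shown for SPANXA1: its last 27 bases are the first 27 of the SPANXA1 window, and 3 of its 7 CG dinucleotides lie in that shared stretch, all 3 of them CG in SPANXA1 too. The CCAAT box, searched as CCAAT on both strands, was found in 10 of the 13 member windows and in 34.6% of all windows. All SPANX windows held it, but many of these are near-copies of each other and not independent. Among the CT45 windows only that of CT45A10 start 1 held it. The GC box, searched as GGGCGG on both strands, was in 0 member windows and in 45.0% of all windows. No methylation was measured in these samples, and the windows describe the reference genome only.

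**Figure D1:**
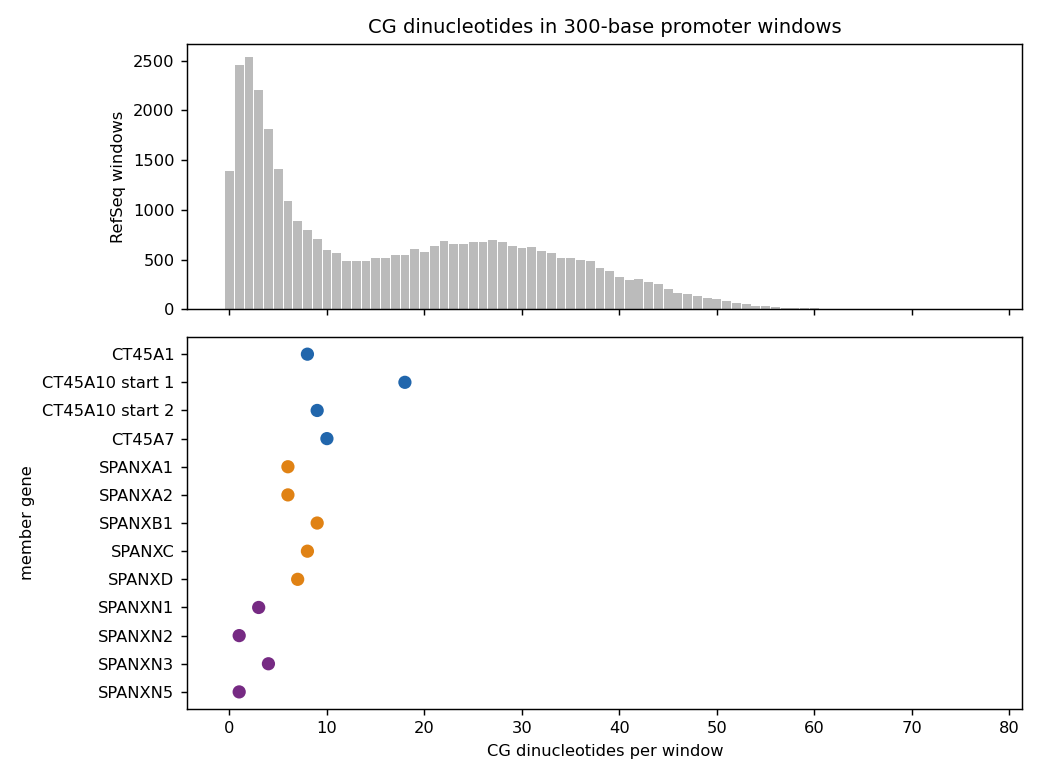
CG dinucleotides per 300-base RefSeq promoter window. The upper panel is a histogram over all 35116 windows, and each point in the lower panel is 1 member gene window (CT45 blue, SPANX-A/D orange, SPANX-N purple). CT45A10 start 1 is the member window with the most, at 18, and the SPANX-N windows hold 1 to 4. CTAG and CT47 genes and most CT45 genes had no window.

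Levels are the authors' deposited log2 values from the RMA method, in which 1 unit is a 2-fold difference. They were compared with limma, a linear model that pools the variance over all rows, and a row is said to rise or fall at a Benjamini-Hochberg adjusted p under 0.05 over all 20835 rows. Of the 22 member rows, 14 rose and 0 fell in limma's test, with 0 lower at an unadjusted p under 0.05 and 0 with a trended and robust variance prior. Over all rows, 12.3% rose and 14.6% fell (2564 and 3040 rows, so that 45.8% of calls were rises). Centring on 20 housekeeping rows turned these into 3180 and 2007 (61.3% rises) and left the members at 14 and 0. The 14 rises were all 11 rows of the CTAG, CT45 and CT47 families and 3 of the 11 SPANX rows. In the 14 rows that rose both treated arrays lay above both vehicle arrays, which was so for 26.5% of all rows. Both treated arrays lay below both vehicle arrays on 1 member row and on 39.0% of all rows. At least 2-fold rises were called for 11 member rows and 5.31% of all rows, and at least 8-fold rises for 9 member rows and 1.00% of all rows. The median log2 fold change was 1.24 over the member rows and -0.07 over all rows. A single row has only 2 arrays a side, for which the smallest p of an exact two-sided permutation test is 0.33, and the calls depend on the variance that limma pools over rows.

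Over the 20835 rows, Pearson's correlation across rows was 0.997 between the vehicle arrays, 0.994 between the treated arrays and 0.956 to 0.960 between groups. Epithelial identity was checked with 10 markers: the keratin KRT8 lay between 12.99 and 13.24 and EPCAM between 11.04 and 11.82, while VIL1, a microvillus protein of enterocytes, was lower, at 4.22 to 4.79. Beside 12.3% rises and 14.6% falls over all rows, 2 of these 10 (20.0%) rose and 4 fell (ELF3, CLDN4, CLDN3 and EPCAM, log2 fold changes -0.99 to -0.72). The summed log2 level of the 10 was 101.5 to 102.4 in vehicle and 99.9 to 101.3 in treated arrays. Among 14 stromal, endothelial and leukocyte markers there were 4 rises (28.6%) and 1 fall. They included PECAM1, an endothelial adhesion protein, with a log2 fold change of 1.79 (SE 0.22), and CD14, a monocyte receptor, with 1.18 (SE 0.13). Their summed log2 level was 60.0 to 61.2 in vehicle and 64.7 to 65.8 in treated arrays. PTPRC, the pan-leukocyte marker, had levels of 2.93 to 3.20, DCN of 2.72 to 3.15 and LUM of 2.78 to 3.07. Of 12 markers of testis somatic and late germ cells, 1 rose (8.33%), the germ cell helicase DDX4 (log2 fold change 2.79, SE 0.16). The protamine PRM1 had levels of 4.61 to 4.97. The summed log2 level of the 12 was 55.0 to 55.6 in vehicle and 56.6 to 57.2 in treated arrays. Several of these calls were each lost in at least 1 fit with 1 array left out. They were the EPCAM fall, the epithelial rises (KRT18 and CDX2), the rises of COL1A1 and CD3E and the fall of KDR. In these fits the log2 fold change ran from -0.76 to -0.67 for EPCAM and from 0.37 to 0.51 for KRT18. The part of these markers in the results was not tested. In bulk RNA, more cells with a transcript and more transcript per cell cannot be told apart.

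Both CTAG rows rose, the one that names the LAGE-1 gene alone and the one that names the NY-ESO-1 and LAGE-1 genes together. The row that names CTAG2 alone, the LAGE-1 gene, had levels of 6.11 and 6.01 in vehicle and 8.13 and 8.50 in treated cells. Its treated arrays lay well above the vehicle arrays, which differed little from each other. It rose 4.77-fold, or 2.25 on the log2 scale (SE 0.15, limma adjusted p = 0.000168). The row that names CTAG1A, CTAG1B and CTAG2 together, shared by 2 probe sets, had levels of 6.08 and 5.40 in vehicle and 7.35 and 7.68 in treated cells. Here the vehicle arrays were farther apart than the treated arrays, but the groups did not overlap. It rose 3.42-fold (log2 fold change 1.77, SE 0.24, adjusted p = 0.00285). No row names CTAG1A or CTAG1B without CTAG2, so the NY-ESO-1 genes have no level of their own in these data. The difference between the CTAG2 row and the shared row was 0.04 and 0.61 on the vehicle arrays and 0.78 and 0.82 on the treated arrays. It was thus larger by 0.48 after treatment, with a spread within groups of 0.29 (SD), and was not tested.

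CT45 transcripts had the largest change of these families. The row that names CT45A6 among 6 copies had levels of 5.21 and 4.94 in vehicle and 11.56 and 11.79 in treated cells, and it rose 96.8-fold (log2 fold change 6.60, SE 0.15, adjusted p = 2.04e-06). The row that names CT45A1 among 5 copies went from 5.29 and 5.05 to 11.58 and 11.85, a 93.5-fold rise. The other 4 rows name CT45A2, CT45A3, CT45A5, CT45A8 and CT45A10 together, and they rose 72.7-fold to 83.9-fold. On every CT45 row the gap between the highest vehicle and the lowest treated array exceeded 6 log2 units, while arrays of a group differed by at most 0.38. By log2 fold change the 6 rows ranked between 12 and 22 of the 20835 rows. Fold changes of the 6 rows spanned 0.41 log2 units. All 6 had a higher value in vehicle 1 than in vehicle 2 and in treated 2 than in treated 1, and all name CT45A2, CT45A3, CT45A5 and CT45A10. The rows are therefore not independent measurements, and no copy of CT45 can be read alone.

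CT47 transcripts rose on all 3 of their rows. The row shared by 9 probe sets that names CT47A1 to CT47A11 had levels of 4.75 and 4.87 in vehicle and 8.63 and 8.26 in treated cells, and it rose 12.4-fold (log2 fold change 3.63, SE 0.15, adjusted p = 2.16e-05). A second row with the same 11 names went from 4.80 and 5.13 to 8.57 and 8.29, an 11.1-fold rise. The third row names CT47A5, CT47A7 and CT47B1, the copy that lies at the edge of the array of repeats. Its vehicle arrays stood apart, at 4.03 and 4.93, and its treated arrays lay at 7.70 and 7.43. It rose 8.48-fold (log2 fold change 3.08, SE 0.28, adjusted p = 0.000606), and with 1 array left out its log2 fold change ran from 2.63 to 3.53. The difference between the 9-probe-set row and this row grew by 0.55, with an SD within groups of 0.39, and was not tested.

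**Figure D2:**
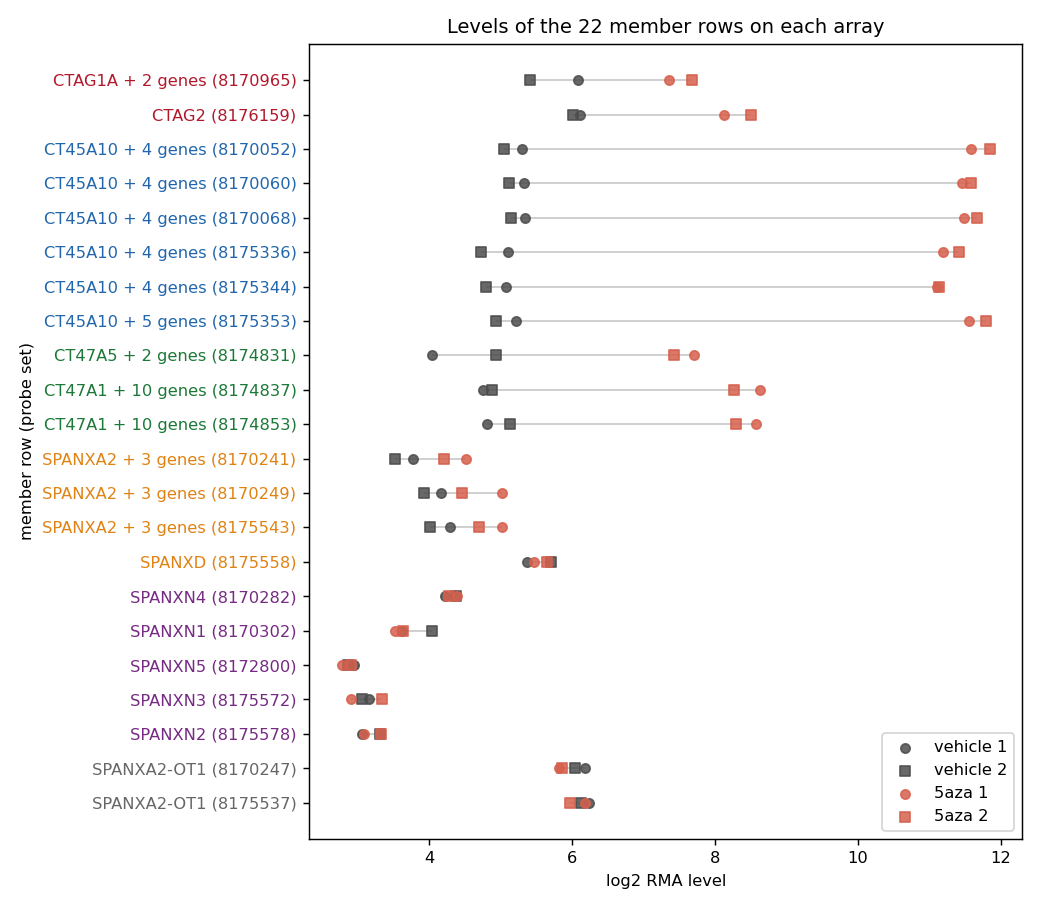
Log2 RMA level of each of the 22 rows on the 4 arrays. Vehicle arrays are grey and treated arrays red, with circles for replicate 1 and squares for replicate 2, and labels give the first gene named, the number of further genes and the probe set. CT45 rows move from 4.72 to 5.34 in vehicle to 11.10 to 11.85 in treated cells, whereas the SPANX-N rows overlap.

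SPANX transcripts moved little, and the A/D and N subfamilies were called differently. The 3 rows that name SPANXA1, SPANXA2 and SPANXC with another copy rose by 1.62-fold to 1.64-fold. The row that also names SPANXB1 had levels of 3.77 and 3.52 in vehicle and 4.52 and 4.21 in treated cells (log2 fold change 0.72, SE 0.16, adjusted p = 0.0180). The rows that also name SPANXD went from 4.29 and 4.01 to 5.02 and 4.69 (probe set 8175543, adjusted p = 0.0209) and from 4.16 and 3.92 to 5.01 and 4.46 (probe set 8170249, adjusted p = 0.0456). These groups did not overlap, but the gaps between them were 0.30 to 0.43 log2 units. All 3 rows were dim enough to be removed by a filter on dim rows, and whether their levels lie above background was not determined. All 3 calls were lost when all 33297 probe sets were tested (adjusted p 0.0594 to 0.119) and without vehicle replicate 2 (0.125 to 0.204). Probe set 8170249 was also lost without vehicle replicate 1 (0.0828), without 5aza replicate 1 (0.0809) and after repeated quantile normalization (0.0822), and probe set 8175543 after the latter (0.0518). The row that names SPANXD alone had levels of 5.37 and 5.70 in vehicle and 5.46 and 5.65 in treated cells. Its groups overlapped, and its log2 fold change was 0.02 (SE 0.15), far from the threshold (adjusted p = 0.933). The differences between the 3 rising rows and the SPANXD row grew by 0.67 to 0.69, with an SD within groups of 0.38 to 0.47. Only 0.01 to 0.15 lay between the groups, and the differences were not tested. Probe sets 8170249 and 8175543 name SPANXD themselves, so the contrast does not cleanly separate SPANXD from the other copies.

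The SPANX-N genes, an older subfamily with single-copy members, did not pass the test. In limma's fit 0 of the 5 rows were called, and 0 were higher or lower at an unadjusted p under 0.05 or called with the trended prior. Of all 20835 rows, 15231 were not called, so the missing calls do not by themselves set this subfamily apart. SPANXN1 had levels of 3.62 and 4.04 in vehicle and 3.52 and 3.63 in treated cells, a difference of -0.25 (SE 0.16, adjusted p = 0.311) on the log2 scale. SPANXN2, SPANXN3, SPANXN4 and SPANXN5 had log2 fold changes of 0.03, 0.01, 0.03 and -0.07. The arrays of the groups overlapped on all 5 rows, whose levels lay between 2.77 and 4.38. Over all rows, both treated arrays lay above both vehicle arrays on 26.5% and below them on 39.0%. Each of these genes has a row that names it alone, but whether the probes also bind other copies was not assessed. The array table has no detection calls, so whether such low levels lie above background was not determined.

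The SPANXA2-OT1 transcript was not called on either row. Probe set 8170247 had levels of 6.18 and 6.04 in vehicle and 5.81 and 5.86 in treated cells, both lower (log2 fold change -0.27, SE 0.12, adjusted p = 0.142). After repeated quantile normalization it was called as a fall (log2 fold change -0.47, adjusted p = 0.0272). Probe set 8175537 had overlapping levels, with a log2 fold change of -0.11 (SE 0.13). No setting called a rise for either row.

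**Figure D3:**
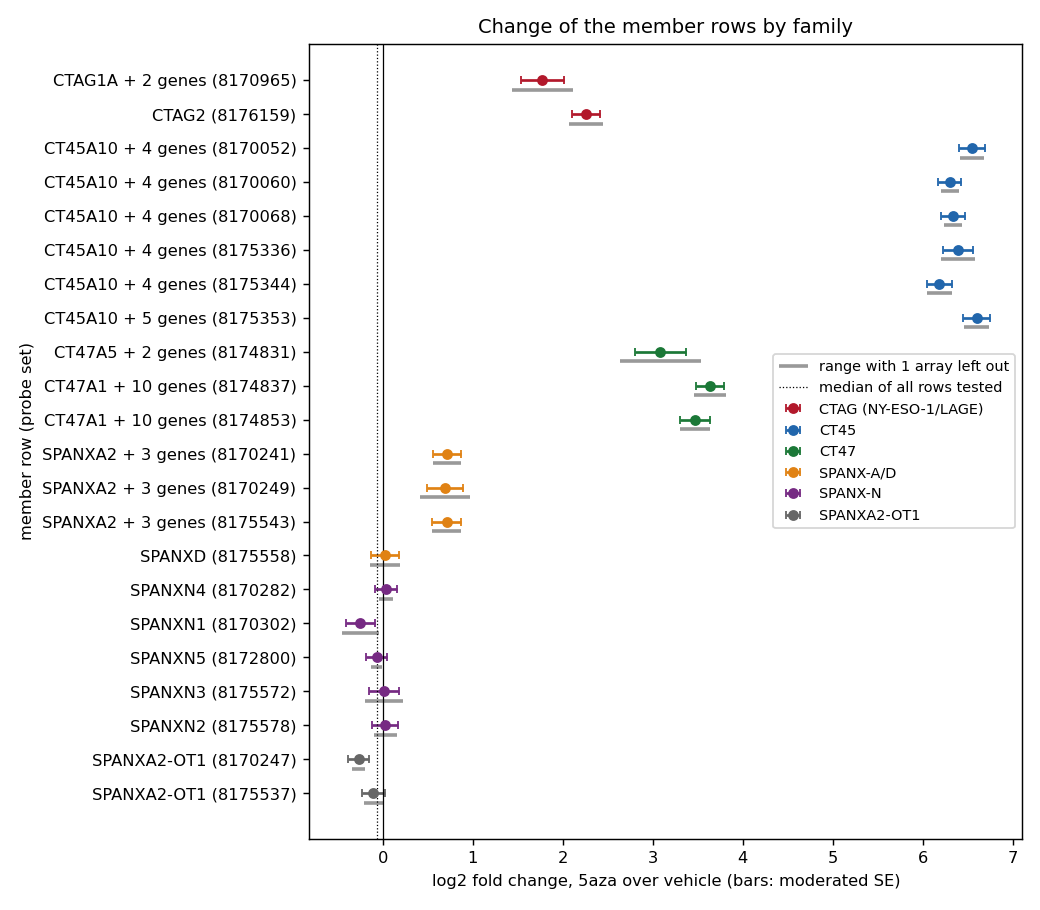
Log2 fold change of each row, treated over vehicle, with bars for limma's moderated SE and a grey line for the range with 1 array left out. Colours mark the families, and the dotted line is the median of all rows, -0.07. The CT45, CT47, CTAG and SPANX values do not overlap each other. Within SPANX, the SPANX-N values overlap those of SPANX-A/D and of SPANXA2-OT1.

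Set against each other, the families changed in the order CT45, CT47, CTAG, SPANX-A/D and SPANX-N, with median log2 fold changes of 6.36, 3.47, 2.01, 0.70 and 0.01. The families share no row, and the comparison was made on the difference between family medians within each array. The median CT45 row stood 0.50 and 0.06 log2 units above the median CT47 row in vehicle and 2.90 and 3.36 above it in treated cells, so that the difference grew by 2.85 (SD within groups 0.32). Levels of different probe sets cannot be ranked, so the change of a difference was described instead. Its size has limits too, because RMA usually compresses the fold changes of dim rows. Rows also name different numbers of copies. For CT47 against CTAG the difference grew by 1.57 (SD 0.44), from -1.34 and -0.78 to 0.84 and 0.17. For CTAG against SPANX-A/D it grew by 1.31 (SD 0.40). In these comparisons the treated arrays lay above the vehicle arrays by at least 0.85. For SPANX-A/D against SPANX-N it grew by 0.72 (SD 0.40), with only 0.18 between the groups. These differences are given as a description, and no p-value was computed for them.

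The other multi-copy antigen families of the X chromosome moved in the same treatment as follows. Of 46 rows whose names begin with MAGEA, MAGEB, MAGEC, SSX, GAGE, XAGE or PAGE, 37 rose and 1 fell, with a median log2 fold change of 1.99. The fall was of SSX2IP, which shares only the prefix and is no antigen (singled out with its value known). Rises were called for 11 of 11 MAGEA, 10 of 10 SSX, 3 of 3 GAGE, 4 of 7 MAGEB, 2 of 3 MAGEC, 3 of 5 XAGE and 4 of 6 PAGE rows. Median log2 fold changes were 6.69 for GAGE, 5.17 for SSX and 1.62 for MAGEA. The CT45 median of 6.36 thus lay between those of SSX and GAGE. All these families share the same arrays and the same RNA.

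Relatives of the antigens that are not counted as members were measured beside them. LAGE3, the widely expressed member of the CTAG family, had levels of 8.26 and 8.45 in vehicle and 8.39 and 8.51 in treated cells, which overlapped (log2 fold change 0.09, SE 0.13, adjusted p = 0.655). SAGE1, an antigen of sarcomas related to CT45, went from 3.53 and 3.25 to 6.17 and 6.33, a 7.24-fold rise (SE 0.14 on the log2 scale, adjusted p = 4.14e-05). INTS6L, a relative of the Integrator subunit INTS6, rose 2.01-fold (SE 0.14), and INTS6 changed by 0.41 on the log2 scale (SE 0.11, adjusted p = 0.0385). The INTS6 call was lost without vehicle replicate 1 (0.213), vehicle replicate 2 (0.267) or 5aza replicate 1 (0.0559). These 4 are the tested genes of a list of 9, which gave 3 rises and 0 falls (0 lower at an unadjusted p under 0.05, and 0 with the trended prior).

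Of 13 tested regulators reported for antigen promoters, 0 rose and 4 fell, beside 12.3% and 14.6% of all rows, with 0 higher at an unadjusted p under 0.05 and 0 rises with the trended prior. UHRF1, which brings the maintenance methyltransferase to replicated DNA, changed by -0.58 on the log2 scale (SE 0.12, adjusted p = 0.0134), and the zinc finger factors CTCF and SP1 and the histone methyltransferase SETDB1 had -0.42, -0.46 and -0.45 (SE 0.11 to 0.12). All 4 calls were lost without vehicle replicate 1 or without vehicle replicate 2, fits in which 0 regulators, relatives or partners fell (adjusted p 0.0747 to 0.254), and centring on housekeeping rows gave 1 fall among these lists. CTCFL, the germline paralog of CTCF reported at the NY-ESO-1 promoter, had levels of 7.58 and 7.51 in vehicle and 7.28 and 7.15 in treated cells (adjusted p = 0.0895), and it was picked out with its value known. Of 10 reported protein partners 1 rose, MAGEC1, which binds NY-ESO-1 and is itself a cancer/testis antigen: its mean went from 3.79 ± 0.32 to 5.79 ± 0.30 (SD, n = 2), with limma's adjusted p at 0.000918. The 5 subunits of protein phosphatase 4, a complex reported to bind CT45, had log2 fold changes between -0.08 and 0.33, with no call. LMNA, encoding the lamins A and C of the nuclear envelope, had 0.36 (SE 0.13, adjusted p = 0.0941).

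Most genes that neighbour the member clusters on the X chromosome were not called. A larger share of them rose than of all rows, but several of the rises were of other cancer/testis antigens. The order of genes was taken from RefSeq, with up to 5 measured protein-coding genes on each side of a cluster. Of 55 such genes 14 rose and 5 fell, 25.5% rises against 12.3% of all rows. Of these genes 7 are in the other antigen families, and 5 of the 7 rose. Of the 48 that are not in those families 9 rose and 5 fell, 18.8% rises. The 9 still include CT55 and FMR1NB, which are also cancer/testis antigens. Around CT47, 0 of 10 rose (0 higher at an unadjusted p under 0.05, and 0 with the trended prior), and 1 fell, C1GALT1C1, a chaperone of O-glycosylation (-0.58 on the log2 scale). The CTAG neighbours gave 2 small rises, PLXNA3 and SLC10A3 (0.65 and 0.48 on the log2 scale), and 1 fall, MPP1 (-0.92). Beside CT45, CT55, itself a cancer/testis antigen, went from 3.19 and 3.84 to 7.97 and 7.23, a 17.0-fold rise (SE 0.30 on the log2 scale, adjusted p = 0.000217), and INTS6L is the other rise there. The zinc finger genes ZNF449 and ZNF75D fell by 0.72 and 0.56 on the log2 scale. These neighbours with changes under 2-fold were chosen with their values known. Without vehicle replicate 1 the calls of C1GALT1C1 (adjusted p = 0.142), PLXNA3 (0.174), SLC10A3 (0.136) and ZNF75D (0.227) were lost, and without vehicle replicate 2 those of C1GALT1C1 (0.0877), SLC10A3 (0.242), ZNF75D (0.0817) and ZNF449 (0.0716). PLXNA3 (0.0598), SLC10A3 (0.0776) and ZNF75D (0.0804) were also lost without 5aza replicate 2.

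The SPANX genes lie in 4 clusters, and their neighbours are read against the 12.3% of all rows that rose. SPANXN5, on the short arm, had a log2 fold change of -0.07 and was not called, while 6 of its 10 neighbours rose, 3 of them SSX or XAGE antigens, and 1 fell. The largest was of GSPT2, a translation termination factor, from 5.04 and 4.85 to 7.85 and 7.11 (5.78-fold, SE 0.24 on the log2 scale). SSX7, XAGE5, XAGE3 and NUDT11 rose 2.08-fold to 3.09-fold. The remaining rise, TSPYL2, had a log2 fold change of 0.75, and the fall, GPR173, had -0.65. With 1 array left out these ran from 0.62 to 0.87 and from -0.80 to -0.51, and neither call held in every such fit. Around the other SPANX genes 4 of 15 neighbours rose: FMR1NB, a cancer/testis antigen, 9.69-fold, MAGEC2 8.43-fold, MAGEC1 as given above and LDOC1, a leucine zipper protein, 2.07-fold. MAGEC1 and MAGEC2 belong to the other antigen families, and outside those families 2 of 12 rose, near the share of all rows. In the same stretch SLITRK4, which lies between SPANXN genes, had a log2 fold change of -0.03 (SE 0.13).

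**Figure D4:**
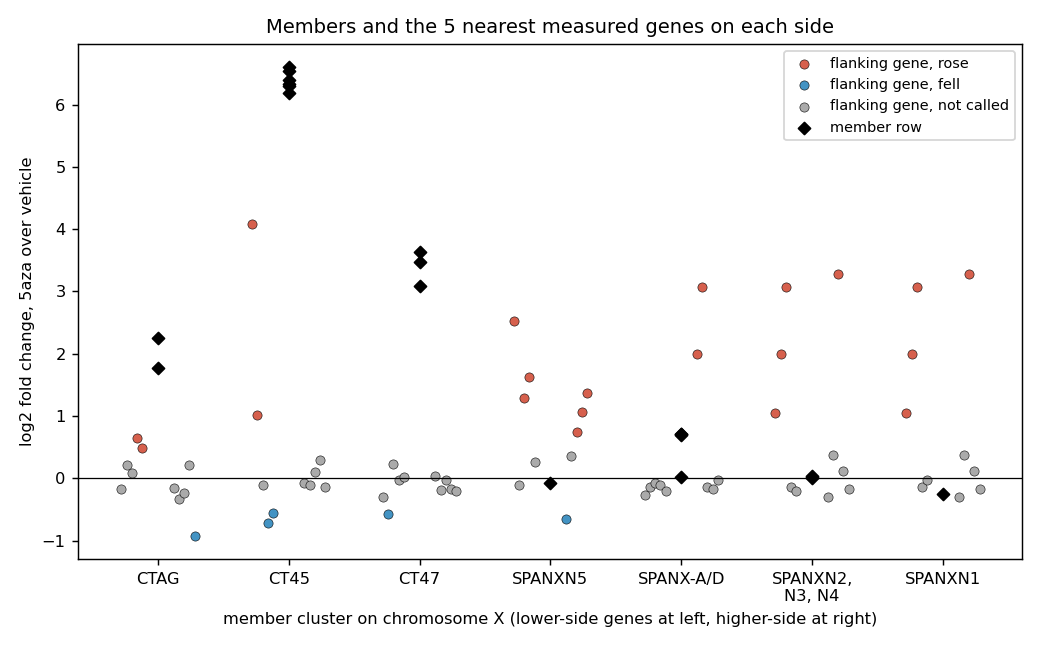
Log2 fold change, treated over vehicle, of member rows (black diamonds) and of up to 5 measured protein-coding genes on each side of 7 clusters of member genes on the X chromosome. Circles are neighbours that rose (red), fell (blue) or were not called (grey), and a gene near several clusters appears at each. CT47 rows stand at 3.08 to 3.63 above 10 neighbours without a rise, while SPANXN5 lies below neighbours that rose.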

How the data were processed

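Total RNA of 4 HCT116 samples was measured on Affymetrix arrays, 1 sample per array. The deposited values are log2 levels; the submitters' processing notes name RMA and Affymetrix Expression Console. RMA adjusts for background, equalizes array distributions and combines the probes of a set, so fold changes of dim rows are usually compressed and a change in total RNA per cell cannot be seen. No source used here states software versions or a genome build. Depth has no meaning for arrays: their number, 2 per group, limits the precision.

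Of 33297 probe sets, 19181 have 1 gene symbol in the platform annotation, 2055 several and 12061 none, and rows with equal values were merged. Probe sequences were not used, so cross-hybridization between copies was not assessed. All 20835 rows were fitted by lmFit and eBayes of limma 3.58.1 (R 4.3.3), without covariates, two-sided and with Benjamini-Hochberg adjustment over all rows. The fit was also run on data simulated from its own variance model, which cannot show whether that model suits these arrays. Promoter windows were aligned with Biopython 1.88 (global, free end gaps). Alternatives were other sets of rows, 2 scalings, a filter on dim rows, a trended prior, the replicate block and leaving out each array. Members and lists were chosen with earlier results of these data known, so no p-value is adjusted over a list alone. Genes named were all members and, by rule, list genes and neighbours called at 2-fold or more, or up to 4 per list by smallest p; the other antigen families are given by counts.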

Additional observations from a re-analysis of the deposited data

How the results depend on the processing

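Of the 22 member rows, 14 rose in the fit reported, and 11 to 14 rose under the alternatives; the 11 CTAG, CT45 and CT47 rows were called in all of them. The filter on dim rows took 3 SPANX-A/D and 5 SPANX-N rows out of the test. The 3 SPANX-A/D rows were those called as rises in the fit reported. After repeated quantile normalization 1 member fell (SPANXA2-OT1). Housekeeping centring moved the median of all rows by 0.12 and the calls over all rows to 3180 rises and 2007 falls (61.3% rises, against 45.8% from 2564 and 3040). Testing all probe sets gave 0 falls in the other antigen families, 3 among neighbours and 1 among relatives, regulators and partners, and 3 marker rises. Among relatives, regulators and partners, centring gave 1 fall, repeated quantile normalization 2, and the dim filter 2 rises. With 1 array left out, rises over all rows ran from 1419 to 2979 and falls from 1153 to 3790, member rises from 11 to 14, other-family falls from 0 to 1, neighbour falls from 1 to 6, falls of relatives, regulators and partners from 0 to 6, marker rises from 3 to 9 and marker falls from 3 to 6. Uncalled rows near 0 changed sign: SPANXD (-0.22) and SPANXN4 (-0.081) after repeated quantile normalization, SPANXN5 after it (0.021) and after centring (0.049), and SPANXA2-OT1 probe set 8175537 after centring (0.014). With 1 array left out SPANXD ran from -0.14 to 0.19, SPANXN4 from -0.049 to 0.12, SPANXN3 from -0.20 to 0.23 and SPANXN2 from -0.10 to 0.15. The causes were not tested. The replicate block gave 14 member rises and 0 falls (3137 and 4060 over all rows); same-numbered arrays deviated together with a correlation of 0.25, but with 2 pairs and no label that links them the numbers were not taken as pairs.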

Other observations

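Genes that lie between members, added after their values were seen, differed by cluster. SAGE1 lies among the CT45 genes and rose 7.24-fold. LDOC1 lies among the SPANX-A/D genes and rose 2.07-fold, from 4.90 and 4.59 to 5.69 and 5.90, more than any SPANX row. SLITRK4, between SPANXN genes, was not called, with a log2 fold change of -0.03.

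Arrays of a group deviated in opposite directions for CT45 and CT47. All 6 CT45 rows were higher in vehicle 1 and in treated 2, while all 3 CT47 rows were higher in vehicle 2 and in treated 1. Rows of a family name shared copies and are not independent, so their number adds little weight. Within groups the arrays differed by at most 0.38 log2 units for CT45 and 0.90 for CT47.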
